A study of Mus musculus with 12 samples.

Results

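The genes described here are 10 mouse genes whose proteins fill the granules or the cytosol of neutrophils. They were chosen by name in the authors' normalized expression table, where each of the 10 was found once among 27676 gene names. Mpo, Ela2, Prtn3 and Ctsg make up the primary (azurophil) granule group, Ltf, Lcn2, Camp and Ngp the secondary (specific) granule group, and S100a8 and S100a9 encode cytosolic proteins of the same cells. The name Ela2 is an older symbol. In RefSeq it is a synonym both of Elane, the neutrophil elastase gene, and of Cela2a, a pancreatic elastase gene, and because the table lists Ela2a on a row of its own, Ela2 was read as Elane.

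RNA came from PUER cells, a mouse myeloid progenitor line with PU.1 joined to the hormone-binding part of the oestrogen receptor, so that the drug 4-hydroxytamoxifen (4-OHT, 10 nM) switches PU.1 on. All cells had been infected with a retrovirus that also makes GFP, either the empty vector MIGR1 (control cells) or MIGR1 carrying β-catenin-S33Y (β-catenin cells), a mutant protein that is not degraded in the usual way, and GFP-positive cells were sorted before 4-OHT was given. Each vector was sampled at 0 h and at 24 h of 4-OHT, with 3 arrays (A, B and C) in each of the 4 groups. PUER is a single cell line, and nothing in the labels states that A, B and C are separate cultures. The p-values therefore cover only how these arrays varied, and part or all of that variation may be technical. The labels list no cells kept for 24 h without 4-OHT, so the drug, PU.1 and time in culture cannot be told apart in the 24 h responses.

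Neutrophil granules are made in waves. Primary granules appear at the promyelocyte stage and carry myeloperoxidase and the serine proteases elastase, proteinase 3 and cathepsin G, which kill engulfed microbes. Secondary granules follow at the myelocyte stage and carry lactoferrin, lipocalin 2, cathelicidin and other antimicrobial proteins. The factors C/EBPα, C/EBPε, GFI1, MYB and PU.1 are known regulators of these genes, and strong PU.1 activity is known to favour the macrophage over the neutrophil fate.

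The arrays were 1-colour Agilent mouse whole genome 4×44K arrays, with log2 values normalized by the authors. The median scanned intensity of an array was 133.5 to 208, and between 47.2% and 51.3% of genes lay above a background bound, which was 7.23 to 7.55 on the normalized log2 scale. Between 1.42% and 2.30% of the spots stood at the highest value the scanner can write, 65535 (the scan ceiling), where a spot gives only a lower limit of its signal. Of the neutrophil markers Csf3r, Ly6g, Cxcr2, Cebpe and Mmp8, 3 were found in the table (Csf3r, Cxcr2 and Mmp8), and the summed linear level of these 3 was 1214 to 1466 in control cells at 0 h, 2818 to 3077 in control cells at 24 h, 991 to 1131 in β-catenin cells at 0 h and 1327 to 1363 in β-catenin cells at 24 h. Within this sum Mmp8 rose 6.94-fold with 4-OHT in control cells, while Csf3r fell 1.31-fold (log2 change -0.39 ± 0.10, adjusted p = 0.0163 by limma) and Cxcr2 differed by 0.02 ± 0.20 (adjusted p = 0.964). The summed level of 6 macrophage markers was 1872 to 2141 and 39956 to 41902 in control cells at 0 h and 24 h, and 1333 to 1361 and 9065 to 10875 in β-catenin cells. That of 6 eosinophil markers was 520 to 1034 and 1097 to 3270 in control cells, while for β-catenin cells no sum is given, because Prg2, the main part of it, was at the scan ceiling on all 6 arrays. In control cells 5 of the 6 eosinophil markers at 0 h and 3 at 24 h were below background on all arrays, so these sums are partly background. The summed level of 6 mast cell and basophil markers was 9139 to 9659 and 3118 to 3401 in control cells at 0 h and 24 h, and 14186 to 15810 and 7963 to 8213 in β-catenin cells. In this list Kit, a growth factor receptor also found on progenitors, fell 3.69-fold in control and 1.92-fold in β-catenin cells, with a difference between the responses of 0.94 ± 0.18 (adjusted p = 0.00783), and Cpa3 was below background on all control arrays. Macrophage markers therefore rose with 4-OHT, and 5 of 6 were called lower in β-catenin cells at 24 h. The 5 tested eosinophil markers were called higher in β-catenin cells at both times, while Il5ra was below background on all 12 arrays and was not tested. Mast cell and basophil markers summed to less after 4-OHT with either vector and to more in β-catenin cells at both times. Kit was the largest part of the mast cell and basophil sum in every group. With 4-OHT Camp and Ngp, and in control cells also Ela2 and Prtn3, fell as this sum did. Lcn2 rose instead, as did Mpo in β-catenin cells. At 24 h Ela2, Prtn3 and Ngp were higher in β-catenin cells, as this sum was, and Lcn2 was lower. At 0 h this sum was higher in β-catenin cells too, while Ela2, Prtn3, Camp and Ngp were not called between vectors. Mpo and Lcn2 were called lower in β-catenin cells at 0 h, and Ltf, near background, was called higher. The summed level of 7 erythroid and megakaryocyte markers was 1453 to 1567 in control cells at 0 h and 1191 to 1378 at 24 h. In β-catenin cells it was 2478.5 to 2536 at 0 h and 1778 to 1989 at 24 h. It too was lower after 4-OHT with either vector and higher in β-catenin cells at both times. In control cells 3 of these 7 markers at 0 h and 4 at 24 h were below background on all arrays. The haemoglobin genes Hba-a1 and Hbb-b1 were not called in any comparison. The part of these cell types in the results on granule genes was not tested. Of 5 lymphoid markers, 0 were called in any comparison, and Cd79a and Ms4a1 lay below the background bound on all 12 arrays. These are bulk samples, in which a change in the share of cells that make an RNA and a change in RNA per cell cannot be told apart.

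Among the primary granule genes, Ela2 and Prtn3 gave the clearest signals. Both fell after 24 h of 4-OHT in control cells, by about the same amount, and neither fall was called in β-catenin cells. Both were higher in β-catenin than in control cells at 24 h, and neither difference was called at 0 h. Ctsg could not be measured, and Mpo was measured in only part of the arrays.

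Ela2 encodes neutrophil elastase. In control cells its normalized log2 values on arrays A, B and C were 15.05, 15.29 and 14.98 at 0 h and 13.86, 13.39 and 13.18 at 24 h. In β-catenin cells they were 14.46, 14.78 and 14.87 at 0 h and 14.54, 14.28 and 14.15 at 24 h. All 3 control arrays at 24 h were lower than every other array, while the β-catenin arrays at both times overlapped. At 0 h the 3 β-catenin arrays were below the 3 control arrays. The fall in control cells was 3.11-fold (log2 change -1.63 ± 0.18, where ± is the standard error of the limma fit, n = 3 arrays per group; adjusted p = 2.60e-05). In β-catenin cells the log2 change was -0.38 ± 0.18 (adjusted p = 0.193), with a 95% interval of -0.77 to 0.01. At 24 h Ela2 was 1.80-fold higher in β-catenin cells (log2 difference 0.85 ± 0.18, adjusted p = 0.00617), and at 0 h the difference was -0.41 ± 0.18 (adjusted p = 0.186; interval -0.79 to -0.02). With array weights the change in β-catenin cells was called (log2 change -0.48, adjusted p = 0.0329).

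Prtn3 encodes proteinase 3, a serine protease closely related to elastase. Control arrays gave 15.43, 15.25 and 15.13 at 0 h, against 13.85, 13.88 and 13.65 at 24 h. β-catenin arrays gave 15.37, 15.20 and 15.24 at 0 h, against 14.94, 15.25 and 14.91 at 24 h. Here only the 3 control arrays at 24 h stood apart, more than 1 log2 unit under all others. Unlike for Ela2, the 2 sets of arrays at 0 h overlapped. Prtn3 fell 2.78-fold in control cells (log2 change -1.47 ± 0.12, adjusted p = 2.12e-06), while its change in β-catenin cells was -0.24 ± 0.12 (adjusted p = 0.231; interval -0.50 to 0.02). It was 2.36-fold higher in β-catenin cells at 24 h (1.24 ± 0.12, adjusted p = 2.51e-05), with a difference of 0.00 ± 0.12 at 0 h (adjusted p = 0.993; interval -0.26 to 0.26).

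Prtn3 and Elane are neighbours on mouse chromosome 10, followed by Cfd, which encodes complement factor D, a related protease. Their proximal promoters are shown because both genes fell in control cells and were higher in β-catenin cells at 24 h. Each line holds the 250 bases before the RefSeq start site on the gene's strand (build GRCm38.p6), and capitals mark a match to GAGGAA, the core of PU.1 binding sites, on either strand.
Ela2 (RefSeq symbol Elane), chr10:79886062-79886311, plus strand: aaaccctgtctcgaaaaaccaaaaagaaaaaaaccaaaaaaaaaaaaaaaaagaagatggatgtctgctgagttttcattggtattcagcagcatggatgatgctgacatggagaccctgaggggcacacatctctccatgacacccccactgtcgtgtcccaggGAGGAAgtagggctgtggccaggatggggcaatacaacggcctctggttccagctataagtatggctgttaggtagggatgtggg
Prtn3, chr10:79879417-79879666, plus strand: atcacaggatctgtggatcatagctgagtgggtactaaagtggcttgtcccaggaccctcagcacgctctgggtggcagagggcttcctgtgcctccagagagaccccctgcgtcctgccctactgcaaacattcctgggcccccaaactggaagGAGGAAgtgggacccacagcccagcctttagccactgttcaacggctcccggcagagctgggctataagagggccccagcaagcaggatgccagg
The match lies at -85 to -80 from the start site in Elane and at -95 to -90 in Prtn3, in both on the gene's own strand. GAGGAA occurs in 23.3% of 32851 RefSeq mouse promoters of this length and in 7 of the 10 genes described here (all but Camp, Ngp and S100a9). The C/EBP motif TTGCNNAA and the LEF/TCF motif ATCAAAG, searched on both strands, have no match in either promoter.

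**Figure D1:**
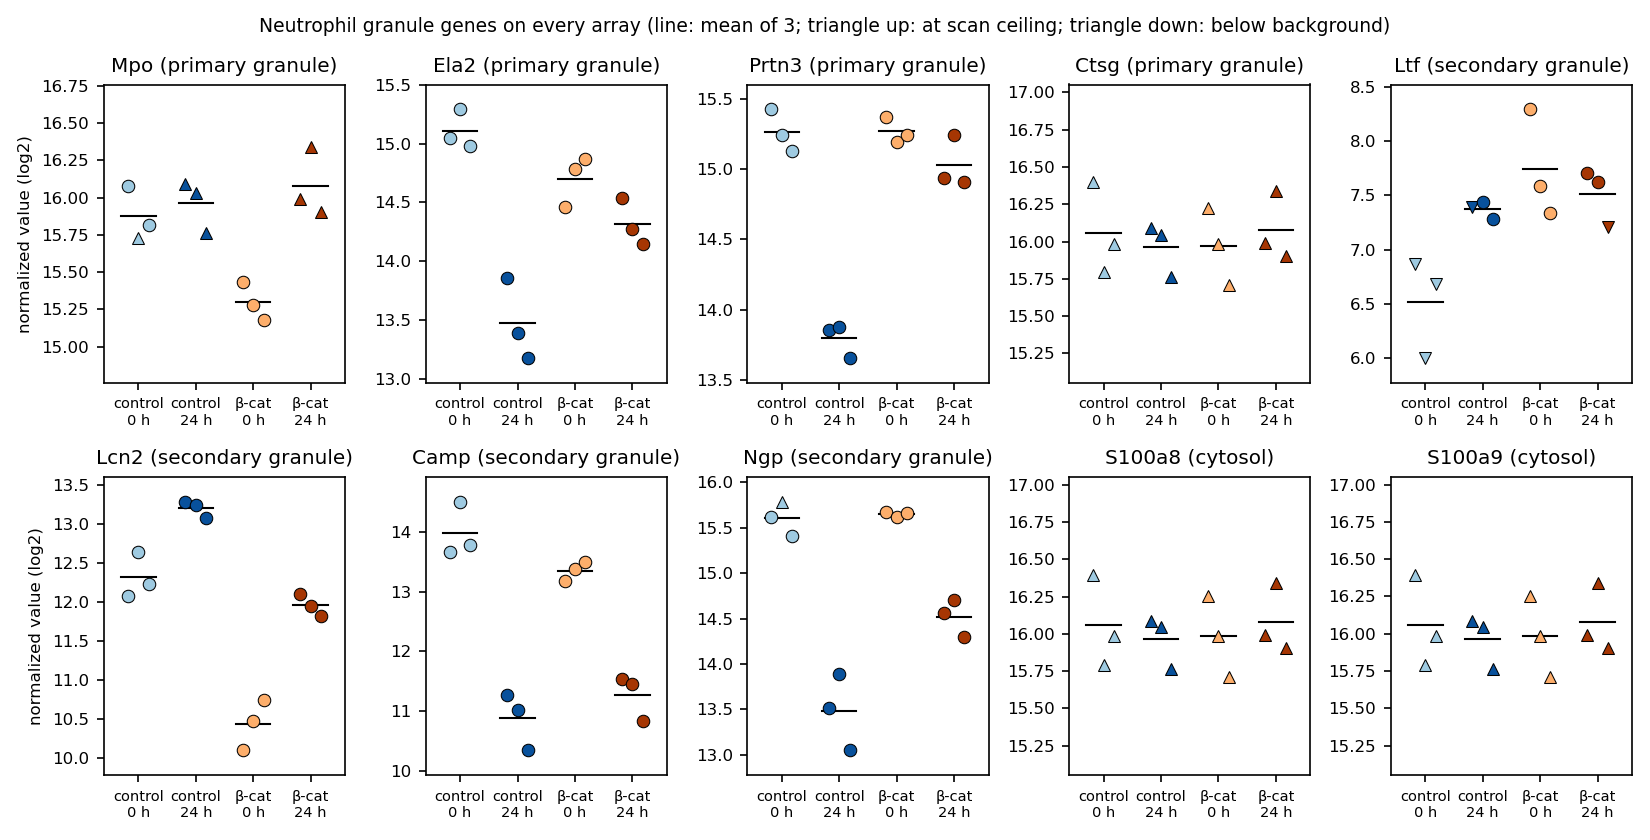
Normalized log2 value (y axis, scaled separately per gene) of the 10 genes on each of the 12 arrays, by group (x axis), with a line at the mean of 3 arrays. Upward triangles are spots at the scan ceiling and downward triangles are values below background; the control arrays at 24 h stand lowest for Ela2 and Prtn3, and for Ctsg, S100a8 and S100a9 every point is at the ceiling.

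Ctsg, S100a8 and S100a9 were at the scan ceiling on all 12 arrays. Ctsg encodes cathepsin G, and S100a8 and S100a9 encode the subunits of calprotectin, a calcium- and zinc-binding protein that makes up much of the neutrophil cytosol. Their scanned intensity was 65535 everywhere, and their normalized values of 15.71 to 16.40 differ only through the normalization of each array. No level, change or fold can be given for these 3 genes. A total of 432 genes in the table were at the ceiling on all 12 arrays.

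Mpo, the gene of myeloperoxidase, which makes hypochlorous acid from hydrogen peroxide, was at the ceiling on 7 of 12 arrays. Before normalization its intensity in control cells at 0 h was 51613 (A), 65535 (B) and 60147.5 (C), and in β-catenin cells at 0 h it was 35775.5, 39299.5 and 43812. All 3 control and all 3 β-catenin arrays at 24 h read 65535. The 3 β-catenin arrays at 0 h were the lowest, and every array at 24 h was at the ceiling.

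On the normalized scale the Mpo values of control cells were 16.08, 15.73 and 15.82 at 0 h and 16.09, 16.03 and 15.76 at 24 h. Those of β-catenin cells were 15.43, 15.28 and 15.18 at 0 h and 15.99, 16.34 and 15.91 at 24 h. Array B of control cells at 0 h was at the ceiling, yet its normalized value is below that of array C, which was not, so the order of these values is not an order of levels. Mpo was at least 1.49-fold lower in β-catenin than in control cells at 0 h (log2 difference -0.58 ± 0.14, adjusted p = 0.0220), and rose at least 1.72-fold with 4-OHT in β-catenin cells (0.78 ± 0.14, adjusted p = 0.00281). The call at 0 h ended when array A of control cells was left out (adjusted p = 0.0809), or array B (0.0687) or C (0.0835) of β-catenin cells. In control cells the response cannot be read, because all 3 control arrays at 24 h and 1 of 3 at 0 h reached the ceiling.

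**Figure D2:**
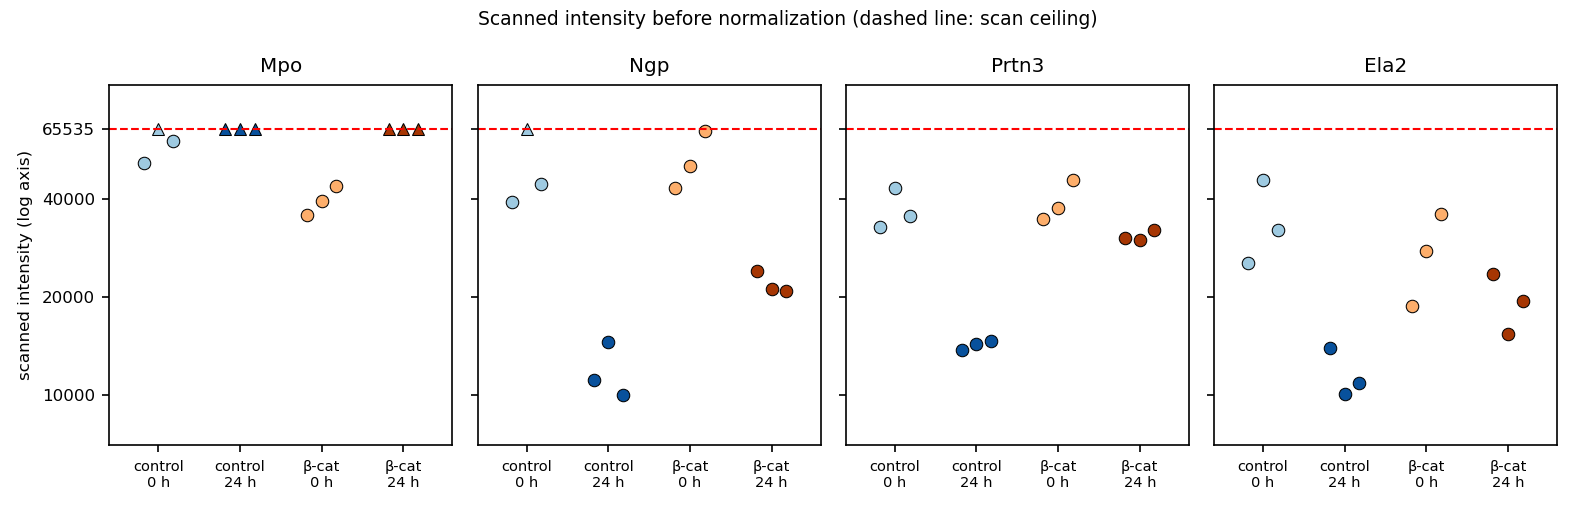
Scanned intensity before normalization (log axis) of Mpo, Ngp, Prtn3 and Ela2 on the 12 arrays by group; the dashed line is the scan ceiling of 65535 and triangles are spots that reached it. Mpo is below the ceiling on all arrays only in β-catenin cells at 0 h, and Ngp reaches it on 1 control array at 0 h, while Prtn3 and Ela2 stay below it throughout.

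The secondary granule genes did not move together. Camp and Ngp fell with 4-OHT in both kinds of cell, Lcn2 rose in both and was lower in β-catenin cells at both times, and Ltf stayed near background.

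Camp encodes the cathelicidin precursor, from which an antimicrobial peptide is cut. In control cells its values were 13.66, 14.50 and 13.79 at 0 h and 11.28, 11.03 and 10.35 at 24 h. In β-catenin cells they were 13.18, 13.38 and 13.49 at 0 h and 11.54, 11.45 and 10.84 at 24 h. With either vector all arrays at 24 h were lower than all arrays at 0 h. At 24 h the vectors overlapped, while at 0 h the 3 β-catenin arrays were below the 3 control arrays. Camp fell 8.57-fold in control cells (log2 change -3.10 ± 0.27, adjusted p = 4.32e-06) and 4.21-fold in β-catenin cells (-2.07 ± 0.27, adjusted p = 0.000299). Between vectors the difference was -0.63 ± 0.27 at 0 h (adjusted p = 0.177; interval -1.23 to -0.04) and 0.39 ± 0.27 at 24 h (adjusted p = 0.377; interval -0.20 to 0.99), and neither was called. In a fit of the 24 h arrays alone with the array letter as a block, the 24 h difference was called (0.39 ± 0.09, adjusted p = 0.0384). This fit was chosen after seeing the data, and the labels state no pairing by letter. The other 21 alternatives did not call this difference.

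Ngp encodes neutrophilic granule protein, a relative of the cathelicidins in sequence. Its values in control cells were 15.62, 15.79 and 15.40 at 0 h, with array B at the ceiling, and 13.51, 13.89 and 13.05 at 24 h. In β-catenin cells they were 15.67, 15.62 and 15.66 at 0 h and 14.56, 14.70 and 14.29 at 24 h. Both vectors were alike and near the ceiling at 0 h, the highest β-catenin array having a scanned intensity of 64600.5, and at 24 h every β-catenin array was above every control array. Ngp fell at least 4.35-fold in control cells (log2 change -2.12 ± 0.19, adjusted p = 4.10e-06) and 2.20-fold in β-catenin cells (-1.13 ± 0.19, adjusted p = 0.00139). At 24 h it was 2.05-fold higher in β-catenin cells (1.04 ± 0.19, adjusted p = 0.00233). At 0 h the difference was 0.05 ± 0.19 (adjusted p = 0.910; interval -0.36 to 0.45).

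Lcn2 encodes lipocalin 2, which binds the siderophores that bacteria use to take up iron. Control cells gave 12.07, 12.64 and 12.23 at 0 h and 13.29, 13.24 and 13.08 at 24 h. β-catenin cells gave 10.10, 10.47 and 10.74 at 0 h and 12.10, 11.95 and 11.82 at 24 h. The β-catenin arrays at 0 h were the lowest and the control arrays at 24 h the highest, with no overlap between times within a vector or between vectors at a time, except that β-catenin arrays at 24 h reached the range of control arrays at 0 h. Lcn2 rose 1.85-fold with 4-OHT in control cells (0.89 ± 0.17, adjusted p = 0.00257) and 2.87-fold in β-catenin cells (1.52 ± 0.17, adjusted p = 0.000102). It was 3.67-fold lower in β-catenin cells at 0 h (-1.88 ± 0.17, adjusted p = 2.80e-05) and 2.37-fold lower at 24 h (-1.25 ± 0.17, adjusted p = 0.000428).

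Ltf encodes lactoferrin, an iron-binding protein of the transferrin family. Its values in control cells were 6.87, 6.005 and 6.69 at 0 h and 7.40, 7.44 and 7.28 at 24 h. In β-catenin cells they were 8.29, 7.58 and 7.34 at 0 h and 7.71, 7.62 and 7.21 at 24 h. Of the 12 values 5 were below the background bound of their array, among them all 3 of control cells at 0 h. Ltf was at least 1.25-fold higher in β-catenin cells at 0 h (log2 difference 1.22 ± 0.26, adjusted p = 0.00920). Its 4-OHT response in control cells passed the test (0.85 ± 0.26, adjusted p = 0.0308) but lay within background, so no fold is given. This call ended when array B of control cells at 0 h was left out (adjusted p = 0.120), when array A (0.0746), B (0.0829) or C (0.0577) of control cells at 24 h was, and with scaling to the 75th percentile (0.0879). In β-catenin cells the response was -0.23 ± 0.26 (adjusted p = 0.647; interval -0.79 to 0.33), and at 24 h the vectors differed by 0.14 ± 0.26 (adjusted p = 0.767; interval -0.42 to 0.70).

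The promoters of Camp, Ngp and Lcn2 are shown because these 3 secondary granule genes changed in both kinds of cell, Lcn2 in the opposite direction to the other two. The layout is that of the Elane and Prtn3 promoters, from RefSeq on GRCm38.p6, and capitals mark GAGGAA or TTGCNNAA on either strand (on the opposite strand GAGGAA reads TTCCTC).
Camp, chr9:109849457-109849706, minus strand: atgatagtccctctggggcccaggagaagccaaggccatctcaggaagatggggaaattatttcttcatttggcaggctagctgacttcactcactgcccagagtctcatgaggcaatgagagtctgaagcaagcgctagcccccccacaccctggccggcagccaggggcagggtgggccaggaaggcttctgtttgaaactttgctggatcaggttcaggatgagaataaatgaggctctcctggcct
Ngp, chr9:110419558-110419807, plus strand: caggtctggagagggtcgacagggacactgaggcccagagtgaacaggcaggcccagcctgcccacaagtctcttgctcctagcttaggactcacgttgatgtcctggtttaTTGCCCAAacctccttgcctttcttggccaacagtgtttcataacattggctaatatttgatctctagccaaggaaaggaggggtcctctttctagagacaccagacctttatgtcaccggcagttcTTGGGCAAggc
Lcn2, chr2:32387740-32387989, minus strand: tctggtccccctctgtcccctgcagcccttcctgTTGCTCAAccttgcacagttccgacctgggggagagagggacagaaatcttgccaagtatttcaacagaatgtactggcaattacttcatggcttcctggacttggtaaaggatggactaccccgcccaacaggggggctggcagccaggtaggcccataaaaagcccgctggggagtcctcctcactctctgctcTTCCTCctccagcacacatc
Camp holds no match to any of the 3 motifs in this window. Ngp holds TTGCNNAA at -138 to -131 and, on the opposite strand, at -11 to -4. Lcn2 holds TTGCNNAA at -216 to -209 and GAGGAA on the opposite strand at -20 to -15. TTGCNNAA occurs in 9.56% of all promoters and in 4 of the 10 genes (Ltf, Lcn2, Ngp and S100a9), and ATCAAAG in 3.21% and 0 of 10. No match overlaps another. Camp, Ngp and Ltf all lie on chromosome 9 but are not neighbours, Lcn2 lies on chromosome 2, and S100a8 and S100a9 are neighbours on chromosome 3.

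Counted over the 10 genes, 2 rose and 4 fell with 4-OHT in control cells, against 11.9% of all 22461 tested genes called as higher and 10.8% as lower. By group, 0 of 4 primary granule genes rose and 2 fell. Of 4 secondary granule genes 2 were called higher (Lcn2, and Ltf within background only) and 2 fell (Camp and Ngp). In β-catenin cells 2 rose (Mpo and Lcn2) and 2 fell (Camp and Ngp), against 8.02% and 6.32% of all genes. The β-catenin effect at 0 h was higher for 1 gene (Ltf) and lower for 2 (Mpo and Lcn2), against 4.38% and 6.62%, and at 24 h it was higher for 3 (Ela2, Prtn3 and Ngp) and lower for 1 (Lcn2), against 8.68% and 9.88%. No median over the 10 genes is given. In each of these 4 comparisons it would rest on genes at the ceiling or partly below background. Over all tested genes the median changes were -0.005, 0.016, 0.006 and 0.026. All 10 genes passed the filter on low values, but 3 of them were at the ceiling throughout and could not be called. No test compared the primary with the secondary granule genes as groups.

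Scaling each array to its 75th percentile moved the median change of all genes in the control response from -0.005 to -0.120, and its calls from 2674 higher and 2422 lower to 2058 and 3327. At 24 h the vector effect moved from 1950 higher and 2219 lower to 2615 and 1753. Relative to the shifted median, the control responses under that scaling were -1.56 for Ela2, -1.41 for Prtn3, -3.01 for Camp, -2.08 for Ngp and 0.89 for Lcn2, each in the same direction as above.

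**Figure D3:**
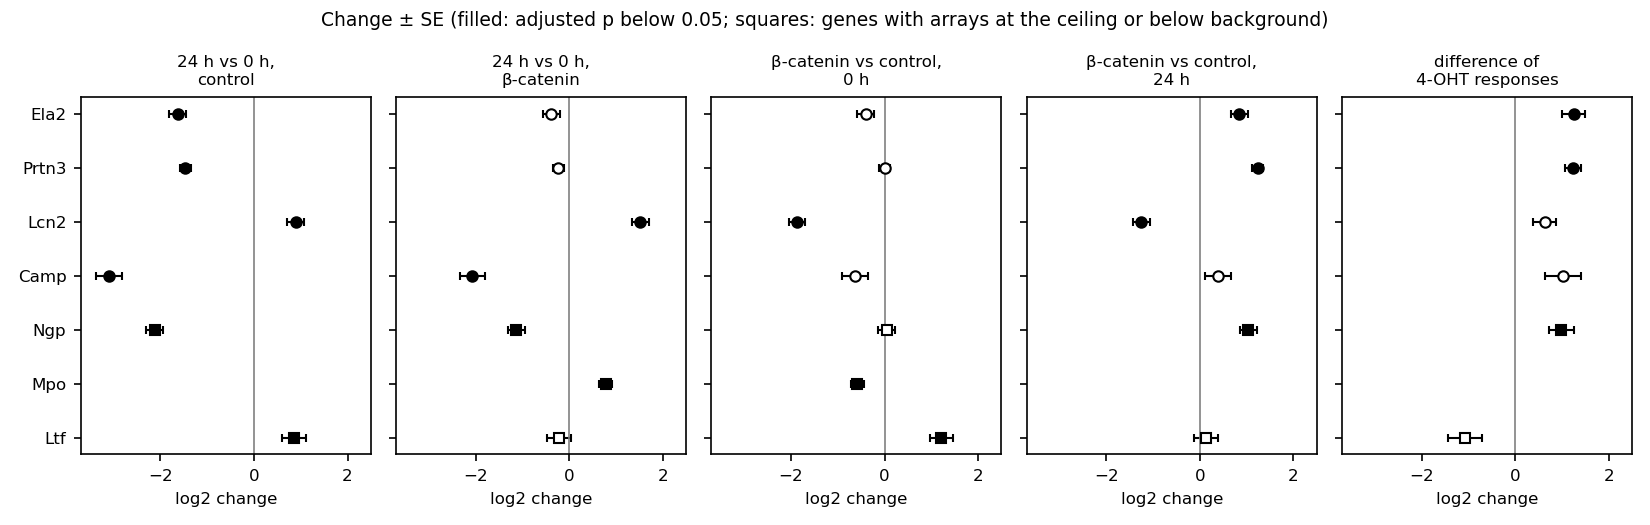
Log2 change ± SE of 7 granule genes in the 5 comparisons (1 panel each), with filled symbols for an adjusted p below 0.05 and squares for genes with arrays at the ceiling or below background; Ctsg, S100a8 and S100a9 are left out because they were at the ceiling throughout, and Mpo is shown only where at least 1 group was below it. Ela2 and Prtn3 are filled in the control response and open in the β-catenin response, and Camp, Ngp and Lcn2 are filled in both.

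Whether the 4-OHT response itself differed between the vectors was tested as an interaction, the response in β-catenin cells minus that in control cells. It was called for 3 of the 10 genes, all positive, and for 0 as negative, against 3.74% and 3.43% of all genes. No median over the 10 genes is given, because it would rest partly on Mpo, which was at the ceiling at 24 h. Prtn3 (1.24 ± 0.17, adjusted p = 0.00107) and Ela2 (1.25 ± 0.25, adjusted p = 0.0108) were the primary granule genes called, and both kept the call in every one of the 20 alternatives run for them. Ngp was called at 0.99 ± 0.26 (adjusted p = 0.0431), but this call was lost in 12 of 19 alternatives, with adjusted p up to 0.0932. Leaving out control 0 h array A or B, control 24 h array A or C, any β-catenin 0 h array, or β-catenin 24 h array A or B each ended it (adjusted p 0.0582 to 0.0932). Camp (1.03 ± 0.39, adjusted p = 0.149; interval 0.18 to 1.87) and Lcn2 (0.63 ± 0.25, adjusted p = 0.168; interval 0.09 to 1.17) were not called, nor was Ltf (-1.08 ± 0.36, adjusted p = 0.104). For Mpo the fitted difference is not a measurement, since both groups at 24 h were at the ceiling.

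The genes whose 4 group means were most like those of Ela2, by the root mean square difference of centred log2 means, were Marcksl1 (0.072) and Ctf1 (0.0902). For Prtn3 they were Hsd17b1 (0.0212) and Stfa3 (0.0962), but Stfa3 was at the ceiling on all 6 arrays at 0 h, so its likeness is not a measurement. Camp was most like Fbp1 (0.102), Lcn2 most like Oplah (0.158) and Lrp1 (0.174), and Ltf most like C1qtnf3 (0.150) and Pdgfra (0.154). Ltf was below background on 5 of 12 arrays, among them all 3 control arrays at 0 h, so its likeness is not a measurement either. The measure rests on 4 group means from the same 12 arrays, and was computed only for granule genes that had no array at the ceiling and a span of at least 1 log2 unit between group means.

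Other genes of neutrophil granules moved in both directions. The counts in this list and the lists below stand against the following shares of all 22461 tested genes. Called higher and lower were 11.9% and 10.8% in the control response and 8.02% and 6.32% in the β-catenin response. Between vectors the shares were 4.38% and 6.62% at 0 h and 8.68% and 9.88% at 24 h. For the interaction they were 3.74% and 3.43%. Of 15 other primary granule genes, a list that also holds lysosomal enzymes and the surface receptors Igsf6 and Clec12a, 14 were tested. With 4-OHT 4 rose and 2 fell in control cells. Ctsc, the gene of cathepsin C, which activates the granule serine proteases, rose at least 6.42-fold (log2 change 3.60 ± 0.15). Prss57 (listed as Prssl1), a granule protease gene, fell 2.24-fold (-1.17 ± 0.21), and Cst7, the gene of the protease inhibitor cystatin F, fell 2.77-fold (-1.47 ± 0.16). Prss57 was 3.29-fold higher in β-catenin cells at 24 h (1.72 ± 0.21) and 1.64-fold higher at 0 h (0.72 ± 0.21), and its interaction was not called (adjusted p = 0.0647). Ctsc was the 1 gene of this list with a called interaction, but it was below background on all 6 arrays at 0 h, so the fitted value (-1.30 ± 0.21) is not a measured difference. Srgn (listed as Prg1), Cd63 and Lyz2 (listed as Lyzs) reached the ceiling on every array, while Bpi and Clec12a were below background on every array. In β-catenin cells 4 rose and 1 fell, and between vectors 2 were higher and 0 lower at 0 h, and 2 higher and 2 lower at 24 h.

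Of 23 other secondary and gelatinase granule genes 20 were tested, and 8 rose and 4 fell in control cells, against 11 and 2 in β-catenin cells. The gelatinase gene Mmp9 rose at least 37.7-fold in control cells and at least 3.55-fold in β-catenin cells, and the collagenase gene Mmp8 rose 6.94-fold (2.80 ± 0.14) in control cells. Mmp9 was 11.1-fold and Mmp8 3.59-fold lower in β-catenin cells at 24 h. The interaction of Mmp8 was negative (-1.57 ± 0.20), opposite in sign to those of Ela2, Prtn3 and Ngp, while that of Mmp9 was not measured, since Mmp9 was below background on all 6 arrays at 0 h. In this list 6 interactions were called positive and 3 negative, of which 4 and 1 were of genes above background and below the ceiling on all 12 arrays. The others include Stfa3, at the ceiling on all 6 arrays at 0 h, and Adam8, at the ceiling on 9 arrays. At 0 h 0 genes were higher in β-catenin cells and 6 lower, among them Cd177, a neutrophil surface glycoprotein gene (2.75-fold, -1.46 ± 0.16), and Retnlg, a resistin-like gene (at least 1.28-fold). At 24 h 3 were higher and 8 lower. Hp, Slpi and Stfa1 reached the ceiling on each of the arrays.

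**Figure D4:**
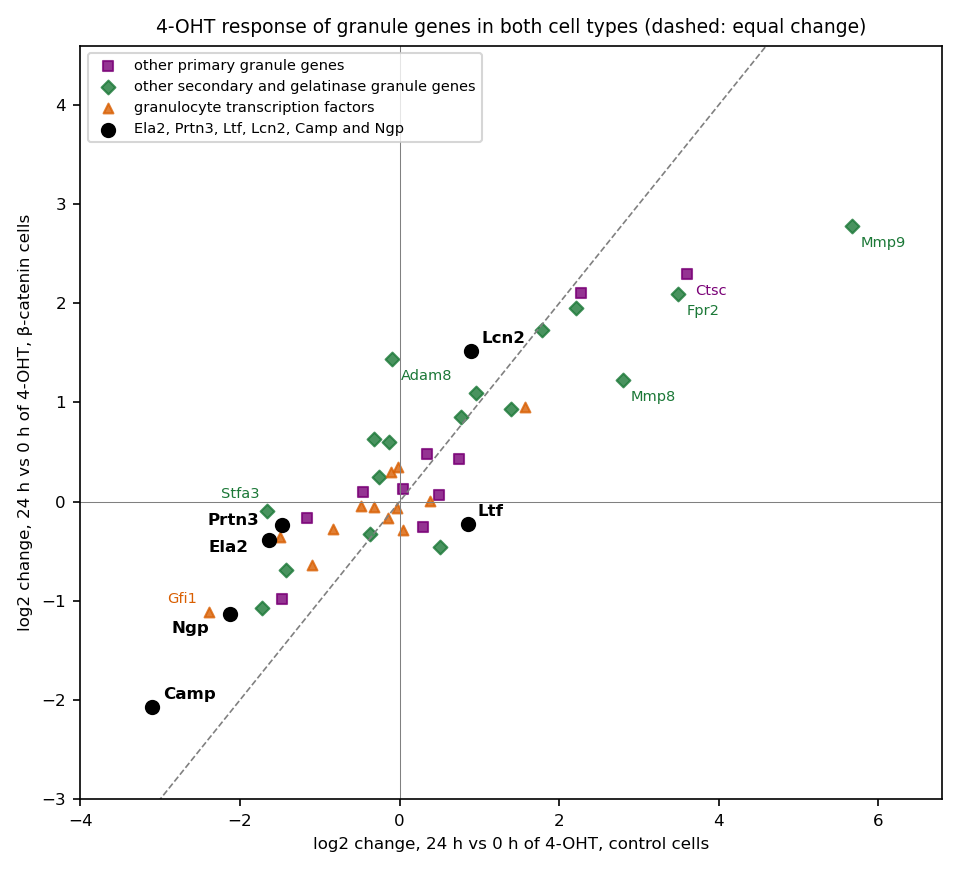
Log2 change with 4-OHT in control cells (x axis) and β-catenin cells (y axis) for Ela2, Prtn3, Ltf, Lcn2, Camp and Ngp (black) and for 3 lists of related genes, leaving out genes at the ceiling or below background on all arrays; the dashed line marks equal change. Ela2, Prtn3, Ngp and Camp lie at lower left, above the line, and Mmp8, Mmp9, Ctsc and Fpr2 at upper right, below it, the last 3 with 6 arrays each below background. Genes at the ceiling or below background on only some arrays are kept, and their positions are limits or not measured. Among them Adam8, Stfa3, Gfi1 and Ngp had arrays at the ceiling and Ltf had arrays below background.

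Among 15 tested transcription factors of granulocytes, 2 rose and 6 fell in control cells, and 1 rose and 2 fell in β-catenin cells. At 24 h 4 were higher and 2 lower in β-catenin cells. Gfi1, a repressor needed for neutrophil formation, fell at least 5.24-fold in control cells (-2.39 ± 0.11) and at least 2.16-fold in β-catenin cells, and was 2.56-fold higher in β-catenin cells at 24 h (1.35 ± 0.11). Myb, a factor of immature blood cells, fell 2.82-fold in control cells (-1.50 ± 0.16) and was 2.72-fold higher in β-catenin cells at 24 h. Gfi1 and Myb were the 2 factors with a called interaction, both positive, but neither was below the ceiling on all arrays. Myb was at the ceiling on all 3 β-catenin arrays at 0 h, so the fitted difference (1.14 ± 0.22) is an upper limit whose sign is not measured. Gfi1 (1.28 ± 0.15) was at the ceiling on 1 array of each vector at 0 h. Cebpa, the gene of C/EBPα, was 1.69-fold higher in β-catenin cells at 24 h (0.76 ± 0.11), and Cebpb reached the ceiling on each array. Between vectors at 0 h, 0 of the 15 were higher and 2 lower.

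Of 9 tested surface and receptor genes of neutrophils, 4 rose and 2 fell in control cells and 3 rose and 1 fell in β-catenin cells. At 0 h 7 were called lower and 0 higher in β-catenin cells, against 6.62% and 4.38% of all genes. At 24 h 5 were lower and 1 higher in them, against 9.88% and 8.68%. Of the genes lower at 0 h, Fpr1 was below background on all arrays at that time, and Padi4, Il1r2 and Cxcr2 on some. Il1r2, a decoy receptor gene for interleukin 1, rose at least 18.9-fold in control cells and at least 6.88-fold in β-catenin cells. Fpr1, which encodes a receptor for bacterial peptides, rose at least 5.03-fold in control cells and was 4.51-fold lower in β-catenin cells at 24 h (-2.17 ± 0.09). The interaction was called negative for 2 of the 9 and positive for 0, both of genes with arrays below background.

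Relatives of the granule proteins were examined by family. Among 15 relatives of the serine proteases, 9 were below background on all arrays. Of 12 tested 2 rose and 1 fell in control cells, against 11.9% and 10.8% of all tested genes. Cfd, next to Elane on the chromosome, rose 1.42-fold in control cells (0.50 ± 0.11, adjusted p = 0.00685), in the opposite direction to Ela2 and Prtn3. Mcpt8, next to Ctsg, fell 1.95-fold (-0.97 ± 0.09). In β-catenin cells 0 rose and 1 fell, 3 were higher and 0 lower between vectors at 0 h, 2 higher and 0 lower at 24 h, and 0 interactions were called by limma in either direction.

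Of 11 tested other S100 genes, 4 rose and 1 fell in control cells, and 2 rose and 0 fell in β-catenin cells. S100a4 rose 5.02-fold (2.33 ± 0.13) and S100a10 5.26-fold (2.40 ± 0.11) in control cells, against 2.22-fold and 2.35-fold in β-catenin cells, with negative interactions of -1.18 ± 0.19 and -1.16 ± 0.16. At 24 h 4 were lower and 0 higher in β-catenin cells, and at 0 h 1 was higher and 1 lower. In this list 3 interactions were negative and 0 positive, the third being that of S100a11, with 1 array at the ceiling.

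Of 9 receptors for the secreted proteins, 5 rose and 1 fell in control cells and 4 rose and 0 fell in β-catenin cells. Tlr4, a receptor for calprotectin, rose 2.16-fold in control cells (1.11 ± 0.10). Lrp1, a receptor that takes up lactoferrin, rose 2.40-fold in control cells (1.27 ± 0.18) and 3.55-fold in β-catenin cells, and was 3.46-fold lower in β-catenin cells at 0 h. At 0 h 1 receptor gene was higher and 3 lower, at 24 h 0 were higher and 4 lower, and the interaction was called positive for 1 and negative for 3, of which 1 and 1 were of genes above background on all arrays.

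Of 13 tested relatives of the peroxidase, lipocalin and transferrin families, 0 rose and 4 fell in control cells. In β-catenin cells 0 rose and 1 fell. Epx, the gene of eosinophil peroxidase and the closest relative of Mpo on the list, was at least 96.5-fold higher in β-catenin cells at 0 h and at least 56.9-fold higher at 24 h, while Mpo was lower in them at 0 h. At 0 h 2 genes of this list were higher and 4 lower in β-catenin cells, at 24 h 2 were higher and 1 lower, and 2 interactions were called positive and 0 negative, 1 of the 2 being of a gene (Apod) below background on all arrays.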

How the data were processed

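Total RNA of 12 samples was hybridised, 1 array each, as Cy3-labelled cRNA, per the labels. The deposited non-normalized table holds the scanned intensity of 43379 spots (41174 probes). From those intensities the authors made a deposited table of normalized log2 values, with 1 probe for each of 27676 genes; limma is named in the submitters' processing notes without a version, and how arrays were normalized or a probe picked is not given in the sources used here. It equals the series matrix's value table (largest difference 0). A gene was tested if 3 or more arrays had it at or over their 30th percentile (22461 genes). The main test was limma 3.58.1 (R 4.3.3) with 1 mean for each of the 4 groups over all 12 arrays, and 5 two-sided contrasts. P-values were adjusted by Benjamini-Hochberg over all genes tested, and an adjusted p below 0.05 was a call (8 residual and 3.68 prior degrees of freedom). The script was tested on simulated data. The background bound, set after the data were examined, is the mode of an array plus 3 SD of the values below it. A fold towards the ceiling or the bound is printed as "at least". Microarrays have no counts, so the number of arrays limits the precision. RefSeq matched 14728 names directly and 4294 by synonym, and 8654 kept the listed name. Where each probe lies is not given in the sources used here, and a probe may therefore read a close paralog. The members and lists were chosen with earlier results of these data known. Named were all 10 members, up to 4 called genes per list and comparison with the largest changes, and the 2 genes most like each member; some results under this rule are not reported here. Deviations from the group means of same-letter arrays correlated above 0.1 in all 3 pairs only between the 24 h groups (0.149 to 0.189). Their 6 different-letter pairs gave -0.197 to 0.0015, which is not independent of this, because deviations from a group mean cancel out. The letters were taken to pair those groups, although the labels state no pairing. Over all groups the 18 same-letter pairs ranged from -0.174 to 0.195 and the different-letter pairs from -0.201 to 0.223. The alternatives were normexp (offset 50) with quantile normalization, 75th percentile scaling, no filter, a 50th percentile filter, a replicate block over all arrays and (chosen after seeing the data) over the 24 h groups alone, array weights, a trend and robust prior, the 2 groups of a contrast alone, no genes at the ceiling, and each array left out.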

Additional observations from a re-analysis of the deposited data

Results flagged for a closer look

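The response to 24 h of 4-OHT differed between the vectors for 3 of the 10 granule genes by limma's interaction test, a test of the difference itself. For Ela2 the difference, β-catenin minus control cells, was 1.25 on the log2 scale. For Prtn3 it was 1.24. For Ngp it was 0.99, with 1 control array at 0 h at the scan ceiling and a call that most alternatives ended. Over the alternatives the difference ranged from 1.10 to 1.44 for Ela2, from 1.13 to 1.31 for Prtn3 and from 0.77 to 1.19 for Ngp. Groups of 3 arrays are too small for a test for outlying samples, so none was made.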

How the results depend on the processing

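Over 32 results on single genes and up to 22 settings, 635 of 665 recomputed values kept their direction and their side of the threshold, 20 lost a call, 4 gained one and 6 changed sign. Without genes at the scan ceiling, 5 of the 10 genes could be tested and 2 were called in the β-catenin 4-OHT response (4 otherwise), since Mpo and Ngp were left out. With the 50th percentile filter, 5 interactions were called instead of 3, the added ones being Ltf (adjusted p = 0.0482) and Mpo, whose values at 24 h are at the ceiling. Leaving out 1 array at a time gave 5 to 6 called genes in the control response, 4 to 4 in the β-catenin response, 2 to 3 and 4 to 4 for the vector effect at 0 h and 24 h, and 2 to 3 for the interaction. All 6 changes of sign were in differences that were not called. With 1 array left out at a time, the Prtn3 vector effect at 0 h ranged from -0.067 to 0.082, that of Ngp from -0.053 to 0.139 and the β-catenin response of Ltf from -0.43 to 0.049. The Ngp effect at 0 h was -0.047 with normexp and quantile normalization. Array weights added a call for Ltf in the interaction (adjusted p = 0.0441). The Ngp interaction was also lost with normexp (0.0680), no filter (0.0566) and array weights (0.0646). With the replicate block 6, 4, 3, 4 and 4 of the 10 genes were called in the 5 comparisons (6, 4, 3, 4 and 3 without it); 4 of 12 arrays correlated best with an array of their own letter. With the block in the 24 h groups alone, where the letters were taken as pairs, 5 of the 10 genes were called instead of 4, Camp being added. No other call changed. The causes were not tested. Depth of signal limits Ctsg, S100a8, S100a9 and part of Mpo and Ngp from above and Ltf from below.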
